A study of Homo sapiens with 6 samples.

Results

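Cells hold on to each other, to leukocytes and to the matrix through receptors on their surface. The 10 adhesion receptor genes described here are 9 members of the immunoglobulin superfamily (ICAM1, ICAM2, VCAM1, CD58, L1CAM, CEACAM1, BCAM, ALCAM and F11R) and CD44. Their rows were picked by symbol from a list of names that was drawn up with earlier results of these data known, and they make up 10 of the 29889 genes with a row in the deposited count table. All 10 also have a row in the table of FPKM values, which correct the fragments of each gene for its transcript length and the library size and so can be compared between genes.

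The libraries came from A549, a human lung adenocarcinoma cell line of epithelial origin. CELF6-OE cells were transiently transfected with a pIRES-hrGFP-1a plasmid that carries CELF6, which encodes an RNA-binding protein, and Control cells with the empty plasmid. Polyadenylated RNA was sequenced 48 h later from 3 replicates per group, called biological replicates in the study's methods, so all 6 libraries share the cell line, the vector and the transfection. CELF6 itself had 18646, 20789 and 11571 counts in replicates 1 to 3 of CELF6-OE but 0 counts in each Control library, which matches the labels. Its level in CELF6-OE was 246 ± 64.9 FPKM (SD, n = 3), the library of replicate 3 being the lowest. Counts on genes totalled 33748328 to 35413404 per CELF6-OE library and 36422617 to 37920700 per Control library. Such a bulk library averages cells that took up the plasmid and cells that did not, and fewer cells that express a gene cannot be told apart from less RNA per cell.

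The immunoglobulin-type receptors carry a row of immunoglobulin domains outside the cell, a single membrane span and a short tail. Some bind integrins on leukocytes (ICAM1, ICAM2, VCAM1), some bind receptors on T cells (CD58, ALCAM), and several bind a copy of themselves on the next cell (CEACAM1, L1CAM, F11R, ALCAM). CD44 has a different fold and is the main cell surface receptor for hyaluronan, a long sugar polymer of the matrix. In epithelial and endothelial cells the genes ICAM1 and VCAM1 are known targets of inflammatory cytokines, and ICAM1 and CEACAM1 are also known to respond to interferons.

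In CELF6-OE, 8 of the 10 receptor genes were lower than in Control and none was higher at an adjusted p under 0.05 (quasi-likelihood test of edgeR, adjusted over 15847 genes after Benjamini and Hochberg). Of all genes tested, 11.5% were called lower and 6.47% higher by the same rule, 18.0% in all. CEACAM1, a homophilic receptor with inhibitory motifs in its tail, was down to 16.7% of its Control level, VCAM1 to 20.4%, ICAM2 to 29.9% and ICAM1 to 37.9%, as fitted folds. BCAM, F11R, CD58 and CD44 fell by less than 1.5-fold. L1CAM and ALCAM did not pass the test. The count of 8 became 4 without CELF6-OE replicate 1 or Control replicate 2, and 5 without CELF6-OE replicate 2 or with libraries scaled by total count alone. By the rule of the study's methods, which asks for p under 0.01 and at least a 1.5-fold change, 4 of the 10 were lower and none higher, against 5.91% and 1.36% of all genes tested. The study's text also gives a rule with an adjusted p under 0.05 in place of that p, by which 4 were lower and none higher as well, against 5.82% and 1.35%. Only the thresholds are the study's, applied to the test and filter used here, so these shares are not the study's own. All 10 passed the filter on low counts, but VCAM1 and ICAM2 were above its level (0.278 CPM, counts scaled to the library size) in the 3 Control libraries and in 0 of the CELF6-OE libraries. A gene that passes only through the group where it is high had to differ, so the calls and folds of these 2 stand apart from those of the other 8, of which 6 were called lower. The log2 fold change, always given as CELF6-OE minus Control, was negative for 9 of the 10 and for 48.4% of all genes tested, with a median of −0.45 over the receptors and 0.01 over all genes tested.

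The promoters of the 3 genes with the lowest adjusted p are shown with the motifs they hold. The sequences are the 250 bases before the RefSeq start of each gene (assembly GRCh38.p14), read 5′ to 3′ on the gene's strand. CEACAM1 is at chr19:42528482-42528731 on the minus strand, ICAM1 at chr19:10270870-10271119 on the plus strand and VCAM1 at chr1:100719492-100719741 on the plus strand. The CEACAM1 window lies within the annotated span of the gene given below, whose outermost start is further upstream than this RefSeq start. Capitals mark every match to 5 motifs searched on both strands, a short kB motif GGANNNTCC that many NF-kB sites contain, the wider NF-kB consensus (10 bases, added after the sequences were seen and overlapping with the short motif in part), the interferon-gamma-activated site (GAS) TTCNNNGAA, the core of the interferon-stimulated response element (ISRE), which is GAAA repeated after a gap of 2 bases, and the TATA box TATAAA.
CEACAM1: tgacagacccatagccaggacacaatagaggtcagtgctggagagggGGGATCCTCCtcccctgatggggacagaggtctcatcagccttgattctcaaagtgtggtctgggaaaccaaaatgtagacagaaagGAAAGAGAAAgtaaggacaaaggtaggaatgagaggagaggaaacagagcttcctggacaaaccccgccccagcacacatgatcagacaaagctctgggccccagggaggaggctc
ICAM1: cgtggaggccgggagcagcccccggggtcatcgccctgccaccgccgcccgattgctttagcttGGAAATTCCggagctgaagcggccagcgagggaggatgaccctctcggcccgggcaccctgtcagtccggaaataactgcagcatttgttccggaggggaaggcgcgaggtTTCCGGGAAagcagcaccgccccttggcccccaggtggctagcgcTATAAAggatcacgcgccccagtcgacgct
VCAM1: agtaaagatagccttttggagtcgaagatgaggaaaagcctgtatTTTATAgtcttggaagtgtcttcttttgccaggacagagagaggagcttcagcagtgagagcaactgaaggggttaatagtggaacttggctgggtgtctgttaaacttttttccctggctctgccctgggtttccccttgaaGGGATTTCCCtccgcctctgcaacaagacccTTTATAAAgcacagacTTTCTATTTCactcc

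Positions are those of the leftmost base of a match, relative to the start site. In ICAM1 the short kB motif GGAAATTCC is at −186, the GAS TTCCGGGAA at −75 and the TATA box at −30. In CEACAM1 the short kB motif, GGATCCTCC, is at −202 within a match to the consensus at −203, and an ISRE core, GAAAGAGAAA, at −116, and the window holds no TATAAA. VCAM1 holds the NF-kB consensus (GGGATTTCCC) at −62, TATAAA at −29, overlapped by a match on the other strand at −31, a further TATA match on the other strand at −205, and an ISRE core on the other strand (TTTCTATTTC) at −15. Among 35116 RefSeq promoter windows, which run on to 50 bases after the start, 9.32% hold the short kB motif, 11.3% the NF-kB consensus, 7.66% the GAS, 3.57% the ISRE core and 11.5% TATAAA. RefSeq windows were found for 8 of the 10 genes, with 2 windows each for BCAM and L1CAM. Those of BCAM, CD44, CD58, ALCAM and L1CAM hold no match to any of the 5 motifs. Of the 250 bases before the start, however, 250 in CD44 and 176 in each L1CAM window lie in annotated exons, against at most 32 in the other windows. Like that of CEACAM1, the windows of CD44 and L1CAM lie wholly within the annotated gene spans given below. In base composition the windows of VCAM1 (48.3% G and C, 5 CpG) and CEACAM1 (53.7%, 3 CpG) lie below the median of all windows (58.7%, 14 CpG). The window of ICAM1 (64.7%, 24 CpG) lies above it, as do those of CD58 (71.7%, 36 CpG) and ALCAM (70.0%, 26 CpG). A match to these letters is a description of the sequence, sites of other letters are not found by this search, and binding was not measured.

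**Figure D1:**
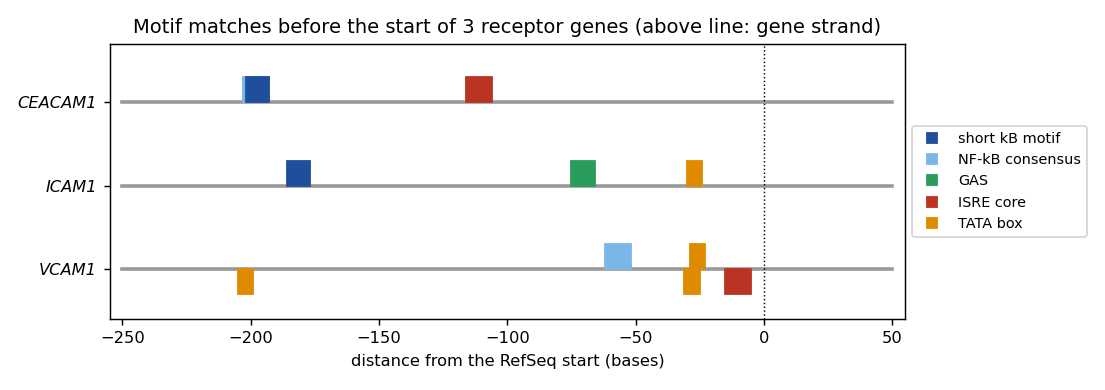
Motif matches in the promoter windows of VCAM1, ICAM1 and CEACAM1. The x axis is the distance from the RefSeq start in bases, each box is a match coloured by motif, and boxes above the line lie on the gene's strand. The short kB motif is found in ICAM1 and CEACAM1, the NF-kB consensus in CEACAM1 and VCAM1, the ISRE core in CEACAM1 and VCAM1, the GAS in ICAM1, and TATAAA in ICAM1 and VCAM1.

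The level of the receptors in A549 spans a wide range. In Control, CD44 was highest at 53.2 ± 2.39 FPKM (SD, n = 3), followed by BCAM at 18.3 ± 0.515, ALCAM at 13.6 ± 2.92, F11R at 11.8 ± 0.494, CEACAM1 at 10.9 ± 0.841 and CD58 at 6.42 ± 0.740 FPKM. ICAM1 (3.23 ± 0.440), L1CAM (0.733 ± 0.106), VCAM1 (0.320 ± 0.0300) and ICAM2 (0.200 ± 0.0346 FPKM) were the 4 lowest. Neighbours in this order did not overlap between libraries, except ALCAM with F11R and F11R with CEACAM1. In CELF6-OE the order became CD44, ALCAM, BCAM, F11R, CD58, CEACAM1, ICAM1, L1CAM, VCAM1 and ICAM2, where CEACAM1 overlapped with ICAM1 and VCAM1 with ICAM2. CEACAM1 thus moved from the range of F11R to that of ICAM1. The 10 levels summed to 96.7 ± 1.32 FPKM in CELF6-OE and to 119 ± 5.40 FPKM in Control. CD44 made up 47.5% to 51.2% of this sum in CELF6-OE and 44.5% to 45.4% in Control.

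**Figure D2:**
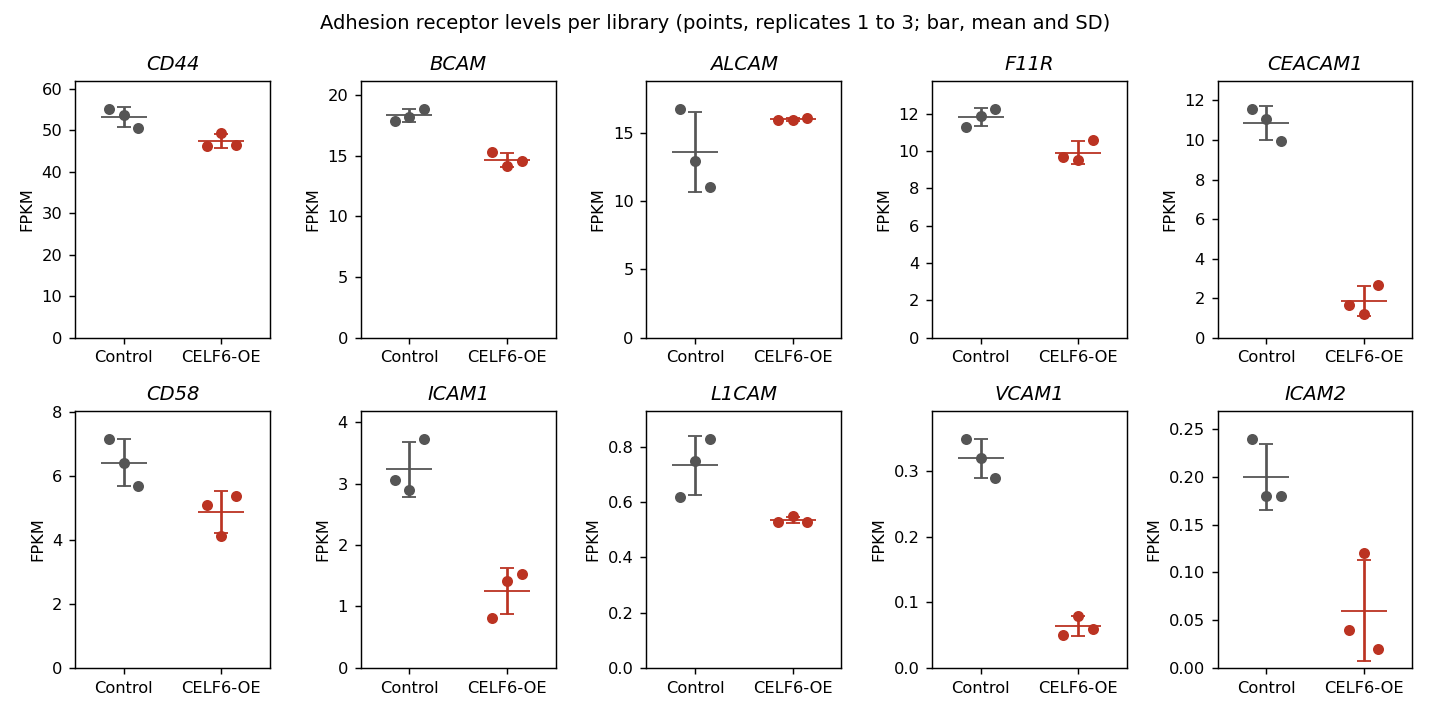
Level of each receptor gene in FPKM (y axis, each panel on its own scale from 0) in the 3 Control and 3 CELF6-OE libraries. Points are libraries and bars the mean and SD. CEACAM1 falls from about 10.9 to 1.85 FPKM, while the CELF6-OE points of ALCAM lie within the spread of the Control points.

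The ligands of leukocyte integrins come first. ICAM1 (ENSG00000090339.8, GRCh38 chr19:10271093-10286615, plus strand) encodes the ligand of LFA-1 and Mac-1, through which leukocytes stop on a cell and cross it. It had 97, 170 and 176 counts in CELF6-OE replicates 1 to 3 against 377, 372 and 479 in Control, or 0.82, 1.41 and 1.53 against 3.06, 2.90 and 3.73 FPKM. Every CELF6-OE library was below every Control library, and CELF6-OE replicate 1 was the lowest of all. ICAM1 fell by 1.40 on the log2 scale (SE 0.196, 95% interval −1.83 to −0.97, adjusted p = 0.000669). Antisense genes share exon bases with ICAM1, 815 of them with ICAM4-AS1 and 61 with LIMASI, and these had at most 3 and 9 counts in any library.

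VCAM1 (ENSG00000162692.10, chr1:100719742-100739045, plus strand) encodes the ligand of the integrin VLA-4 and is best known from activated endothelium. Its counts were 6, 9 and 7 in CELF6-OE against 41, 39 and 35 in Control, a low but separate pair of groups. The level was 0.0633 ± 0.0153 FPKM in CELF6-OE and 0.320 ± 0.0300 FPKM in Control (SD, n = 3). VCAM1 fell by 2.29 on the log2 scale (SE 0.282, interval −2.91 to −1.68, adjusted p = 0.000266). Summed over libraries and divided by the scaled library sizes of the test, Control had 4.97 times the VCAM1 of CELF6-OE. The 95% interval of 3.13 to 8.24 covers counting error only.

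ICAM2 (ENSG00000108622.10, chr17:64002594-64020634, minus strand), a shorter ligand of LFA-1 found mostly on endothelium and platelets, was at the edge of detection. It had 2, 7 and 1 counts in CELF6-OE against 14, 11 and 11 in Control. The groups did not overlap, but the log2 fold change of −1.74 had an SE of 0.537 (interval −2.92 to −0.56) and an adjusted p of 0.0456. The call was lost when CELF6-OE replicate 1 (adjusted p = 0.159), CELF6-OE replicate 3 (0.136), Control replicate 1 (0.0662), Control replicate 2 (0.108) or Control replicate 3 (0.0541) was left out. Without CELF6-OE replicate 2, the library with 7 counts, the log2 fold change was −2.81 (adjusted p = 0.0213). ICAM2 shares 870 exon bases with PRR29 on the opposite strand, which had 19, 27 and 30 counts in CELF6-OE against 23, 44 and 42 in Control and was not called (log2 fold change −0.45, adjusted p = 0.328). The strand setting of the counting is not given in the sources used here, so reads of the 2 genes may be shared.

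Of the receptors that bind T cell proteins, CD58 (ENSG00000116815.15, chr1:116514534-116571039, minus strand) is the ligand of CD2. It had 324, 268 and 332 counts in CELF6-OE against 475, 441 and 392 in Control, or 4.88 ± 0.652 against 6.42 ± 0.740 FPKM. The groups did not overlap, and CELF6-OE replicate 2 was the lowest library. CD58 fell by 0.42 on the log2 scale (SE 0.122, interval −0.69 to −0.16, adjusted p = 0.0347). Its call was lost without CELF6-OE replicate 1 (adjusted p = 0.0800), CELF6-OE replicate 2 (0.136) or Control replicate 2 (0.120).

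ALCAM (ENSG00000170017.12, chr3:105366909-105576900, plus strand), the ligand of CD6 that also binds itself, was the single receptor with a positive log2 fold change. It had 2737, 2801 and 2689 counts in CELF6-OE against 3010, 2419 and 2063 in Control. The CELF6-OE libraries agreed closely, at 16.0 ± 0.0833 FPKM, and lay between Control replicate 1 (16.77 FPKM) and the other Control libraries (12.95 and 11.04 FPKM). ALCAM was higher in CELF6-OE in 6 of the 9 possible pairs of libraries, and the log2 fold change of 0.21 (SE 0.108, interval −0.03 to 0.45) did not pass the test (adjusted p = 0.204). Without Control replicate 1, ALCAM was called higher, at a log2 fold change of 0.35 (adjusted p = 0.0021).

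Among the receptors that join like cells, CEACAM1 (ENSG00000079385.21, chr19:42507304-42561234, minus strand) differed by the most. It binds itself and other CEACAM proteins, and its long tail recruits the phosphatases SHP-1 and SHP-2. CEACAM1 had 224, 166 and 350 counts in CELF6-OE replicates 1 to 3 against 1628, 1614 and 1453 in Control, or 1.66, 1.21 and 2.67 against 11.59, 11.05 and 9.94 FPKM. The highest CELF6-OE library, replicate 3, was far below the lowest Control library, replicate 3. It is also the CELF6-OE library with the fewest CELF6 counts, and the part of the CELF6 level in this was not tested. CEACAM1 fell by 2.58 on the log2 scale (SE 0.205, interval −3.04 to −2.13, adjusted p = 2.01e-05), the largest change among the 10. Its 185 exon bases shared with the antisense gene LIPE-AS1 were the only overlap found, and LIPE-AS1 had at most 45 counts in a library.

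L1CAM (ENSG00000198910.12, chrX:153861514-153886173, minus strand), a neural receptor that several carcinomas also make, had 98, 105 and 95 counts in CELF6-OE against 120, 151 and 167 in Control. All CELF6-OE libraries were below all Control libraries, and Control replicate 1 was closest to them. The log2 fold change was −0.48 (SE 0.155, interval −0.82 to −0.14), and the adjusted p of 0.0524 missed the threshold. Without Control replicate 1 it passed, at a log2 fold change of −0.62 (adjusted p = 0.00745). L1CAM shares 359 exon bases with the antisense gene L1CAM-AS1, which had at most 1 count in a library, and 439 with ENSG00000284987 on the same strand, for which no count was found.

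F11R (ENSG00000158769.17, chr1:160995211-161021343, minus strand) encodes JAM-A, a receptor at tight junctions. It had 1695, 1702 and 1810 counts in CELF6-OE against 2069, 2268 and 2341 in Control, or 9.92 ± 0.594 against 11.8 ± 0.494 FPKM. The groups were separate by a small gap. F11R fell by 0.28 on the log2 scale (SE 0.0760, interval −0.45 to −0.12, adjusted p = 0.0252). This call was lost without CELF6-OE replicate 1 (adjusted p = 0.106), CELF6-OE replicate 2 (0.119) or Control replicate 2 (0.114). An unnamed gene, ENSG00000270149, shares 1853 exon bases with F11R on the same strand and had at most 2 counts in a library.

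The receptors for matrix were those of highest level in Control. BCAM (ENSG00000187244.10, chr19:44809071-44821421, plus strand), also called the Lutheran glycoprotein, binds the alpha-5 chain of laminin in basement membranes. It had 1904, 1798 and 1764 counts in CELF6-OE against 2324, 2458 and 2556 in Control, with no overlap. BCAM fell by 0.35 on the log2 scale (SE 0.0690, interval −0.50 to −0.20, adjusted p = 0.0057). Its call held with each library left out.

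CD44 (ENSG00000026508.16, chr11:35138882-35232402, plus strand) had 10301, 11230 and 10085 counts in CELF6-OE against 12836, 13002 and 12235 in Control. In FPKM the groups were 46.31, 49.44 and 46.60 against 55.28, 53.82 and 50.61, so that CELF6-OE replicate 2 came close to Control replicate 3. CD44 fell by 0.20 on the log2 scale (SE 0.0580, interval −0.32 to −0.07, adjusted p = 0.0391), to 87.3% of the Control level. The call was lost without CELF6-OE replicate 1 (adjusted p = 0.151), replicate 2 (0.0802) or replicate 3 (0.126), and without Control replicate 2 (0.192). With the libraries scaled by total count alone it was also lost (adjusted p = 0.0736). The values are sums over all CD44 transcripts, and isoforms were not analysed here.

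**Figure D3:**
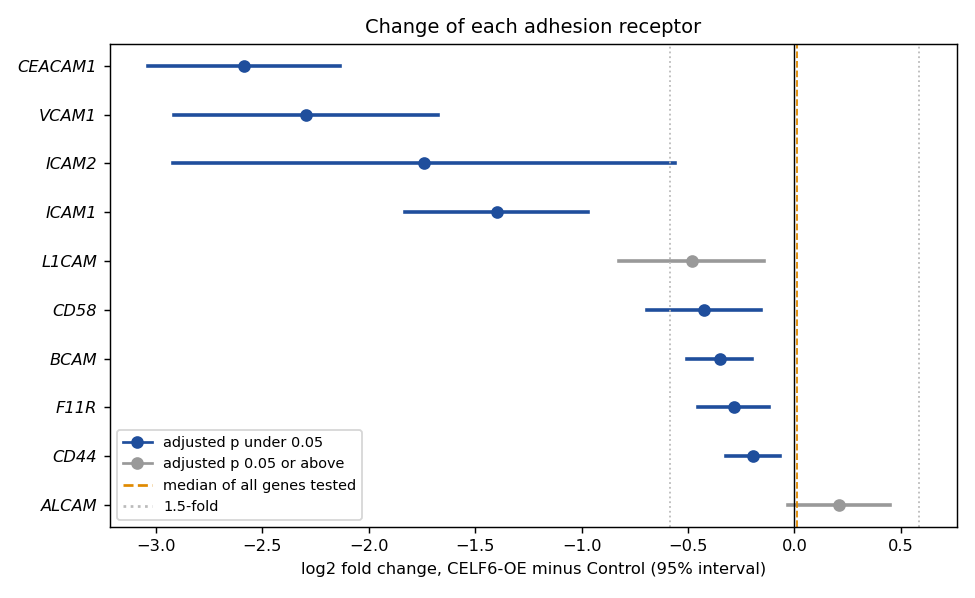
Log2 fold change of each receptor, CELF6-OE minus Control (x axis), with its 95% interval as a line. Blue marks an adjusted p under 0.05, the dashed line the median of all genes tested (0.01) and the dotted lines a 1.5-fold change. CEACAM1, VCAM1, ICAM2 and ICAM1 lie left of the lower dotted line, and ALCAM is the only point right of 0.

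As a check on single genes, an exact permutation test (two-sided) was run on counts scaled to the library size. The exact permutation test gave p = 0.1 for 9 receptors, the smallest that 3 against 3 libraries allow. For ALCAM the exact permutation test gave p = 0.4. In counts scaled to the library size, the highest CELF6-OE library was lower than the lowest Control library for 9 of the 10 receptors. This was so for 20.0% of all genes tested. The 9 include VCAM1 and ICAM2, which passed the filter through Control alone, so their separation and permutation p stand apart. The 10 receptors fell into a group with changes of more than 2-fold (CEACAM1, VCAM1, ICAM2 and ICAM1) and a group with changes between −0.48 and 0.21 on the log2 scale. Receptors of the former group were at 10.9 FPKM or less in Control, and the 4 highest receptors were all in the latter. VCAM1 and ICAM2, with their low levels, passed the filter through Control alone, so they give no relation of level to change. CEACAM1 overlapped with F11R of the latter group in Control, and such a relation was not tested.

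Other immunoglobulin-type adhesion genes were looked at as a list. Of 58 listed relatives, 52 had a row and 32 passed the filter. Of these, 5 were called lower and 1 higher, against 11.5% and 6.47% of all genes tested. The median log2 fold change of the relatives was −0.0045 beside 0.01 over all genes tested. With 1 library left out, 3 to 7 were lower (3 without CELF6-OE replicate 1) and 0 to 3 higher (0 without CELF6-OE replicate 1, CELF6-OE replicate 2 or Control replicate 2, 2 without Control replicate 1 and 3 without Control replicate 3). PVRL2, which encodes nectin-2, a receptor at adherens junctions, had 4351, 4477 and 4966 counts in CELF6-OE against 8056, 9287 and 9577 in Control and fell by 0.89 on the log2 scale (adjusted p = 6.23e-05). CD47, the "do not eat me" signal to macrophages, fell by 0.68 (adjusted p = 9.87e-05), IGSF8, a partner of tetraspanins, by 0.74 (0.000829) and MCAM, a receptor of endothelium and melanoma, by 0.50 (0.0112). The call for MCAM was lost without CELF6-OE replicate 1 (adjusted p = 0.0611). PECAM1, an endothelial receptor, had 3, 3 and 5 counts against 11, 17 and 15 (log2 fold change −1.86, adjusted p = 0.0124). Like VCAM1 and ICAM2, PECAM1 passed the filter through its Control libraries alone, so its call among the 5 stands apart. It was not called without CELF6-OE replicate 1, CELF6-OE replicate 2 or Control replicate 2, where the adjusted p reached 0.0679. CEACAM6, a close relative of CEACAM1 that is anchored by a lipid and was singled out after its values were seen, went the other way. It had 2550, 2273 and 2172 counts in CELF6-OE against 2160, 1964 and 1763 in Control and rose by 0.32 (SE 0.087, adjusted p = 0.026), a call lost without CELF6-OE replicate 1, CELF6-OE replicate 2 or Control replicate 2. CEACAM genes are similar in sequence, and the authors counted only reads with a unique location, so reads from shared stretches are not in these counts. By subfamily, 0 of 2 tested ICAM relatives, 0 of 2 CEACAM relatives, 0 of 5 junction receptors, 0 of 3 L1 and contactin genes and 1 of 7 nectin and CADM genes were called lower.

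The ligands and counter-receptors of the 10 receptors changed in part. Of 27 listed, 20 passed the filter. Of these, 9 were called lower and 1 higher (against 11.5% and 6.47% of all genes tested), with a median log2 fold change of −0.46. With 1 library left out, 5 to 11 were lower (5 without CELF6-OE replicate 2) and 0 to 2 higher (0 without any 1 CELF6-OE library or Control replicate 2, 2 without Control replicate 1 or 3). LGALS9, which encodes galectin-9, a lectin that binds CD44 among others, had 308, 305 and 617 counts in CELF6-OE against 2727, 2679 and 2676 in Control and fell by 2.64 on the log2 scale (SE 0.223, adjusted p = 3.02e-05). In LGALS9, as in CEACAM1, CELF6-OE replicate 3 was the highest CELF6-OE library. FGA, the alpha chain of fibrinogen, which bridges ICAM1 to Mac-1, fell by 1.20 (adjusted p = 0.00133), ITGA5, the alpha chain of the fibronectin receptor, by 0.52 (0.00157), and SRGN, a proteoglycan that binds CD44, by 0.47 (0.00289). Genes for leukocyte integrin chains were at low counts and are named after their values were seen. ITGB2, the beta chain of LFA-1 and Mac-1, had 29, 16 and 26 counts in CELF6-OE against 58, 54 and 40 in Control (log2 fold change −1.02, adjusted p = 0.0241). ITGAM, the alpha chain of Mac-1, had 62, 58 and 54 against 87, 109 and 107 (log2 fold change −0.73, adjusted p = 0.0119). Both calls were lost without CELF6-OE replicate 2 or Control replicate 2, with adjusted p up to 0.095 for ITGB2 and 0.065 for ITGAM. ITGAX, a further alpha chain, was also called lower (log2 fold change −0.69, adjusted p = 0.0163), a call lost without CELF6-OE replicate 1 or 2 (adjusted p up to 0.0755). ITGAL, the alpha chain of LFA-1, had 10, 14 and 14 counts against 18, 21 and 17 and was not called (log2 fold change −0.48, adjusted p = 0.285). Nor was ITGB7 (log2 fold change −0.44, adjusted p = 0.206), and ITGA4, the alpha chain of VLA-4, had at most 6 counts in a library and was not tested. The gene called higher was ITGAV, the alpha chain of vitronectin receptors, which can bind L1CAM. Its log2 fold change of 0.41 had an adjusted p of 0.0463, and the call was lost without CELF6-OE replicate 1, 2 or 3 or Control replicate 2 (adjusted p up to 0.174).

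Genes of hyaluronan synthesis and breakdown and of CD44's partners numbered 26, of which 21 passed the filter. Of these, 4 were called lower and 1 higher (against 11.5% and 6.47% of all genes tested), with a median of −0.07. With 1 library left out, 2 to 5 were lower (2 without CELF6-OE replicate 1 or 2) and 1 to 4 higher (2 without CELF6-OE replicate 3 or Control replicate 1, 4 without Control replicate 3). CD74, the invariant chain of MHC class II, which pairs with CD44 in the receptor for the cytokine MIF, had 5, 8 and 12 counts in CELF6-OE against 349, 481 and 464 in Control. It fell by 5.60 on the log2 scale (SE 0.244, adjusted p = 3.8e-07). Not all of its CELF6-OE libraries were above the filter level, so CD74 too passed through Control alone. HAPLN3, which links hyaluronan to proteoglycans, fell by 0.93 (adjusted p = 0.0013) and ERBB2, a receptor kinase found in complex with CD44, by 0.34 (0.00939). The call for ERBB2 was lost without CELF6-OE replicate 1 or 2 (adjusted p up to 0.0594). HYAL1, a hyaluronidase named after its values were seen, completed the 4 (log2 fold change −0.62, adjusted p = 0.041). Its call was lost when CELF6-OE replicate 1 or 2 or Control replicate 1 or 2 was left out, with scaling by total count alone, with DESeq2 and with the replicate number as a block (adjusted p up to 0.166). NF2, whose product merlin binds the tail of CD44, rose by 0.38 (SE 0.068, adjusted p = 0.00282).

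The proteases that cut such receptors from the surface, with the gamma-secretase subunits and inhibitors, were 20 genes, of which 19 were tested. Of these, 6 were called lower and none higher (against 11.5% and 6.47% of all genes tested), with a median of −0.17. The lower count was 1 without Control replicate 2, 2 without CELF6-OE replicate 1, 3 without CELF6-OE replicate 2, 4 without CELF6-OE replicate 3, 7 without Control replicate 3 and 9 without Control replicate 1, where 2 were called higher. NCSTN, the nicastrin subunit of gamma-secretase, fell by 0.55 (SE 0.068, adjusted p = 0.000271), TIMP1, a metalloproteinase inhibitor, by 0.35 (0.00885) and ADAM15, a membrane-bound disintegrin, by 0.33 (0.0128). The call for TIMP1 was lost without Control replicate 2 (adjusted p = 0.052), and that for ADAM15 without CELF6-OE replicate 1, CELF6-OE replicate 2 or Control replicate 2 (adjusted p up to 0.0745). Scaffolds and tail partners were 19 genes, all tested, with 2 called lower, 1 higher and a median of 0.01, against the same shares of all genes. With 1 library left out, 2 to 4 were lower (4 without Control replicate 3) and 0 to 5 higher (0 without CELF6-OE replicate 2, 5 without Control replicate 1). PTPN6, which encodes the phosphatase SHP-1, fell by 0.56 (SE 0.080, adjusted p = 0.000788), whereas PTPN11, which encodes SHP-2, rose by 0.43 (SE 0.092, adjusted p = 0.00877). Both phosphatases bind the tail of CEACAM1. The call for PTPN11 was lost without CELF6-OE replicate 2 (adjusted p = 0.0503). TJP3, a tight junction scaffold, fell by 1.22 (SE 0.203, adjusted p = 0.002).

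**Figure D4:**
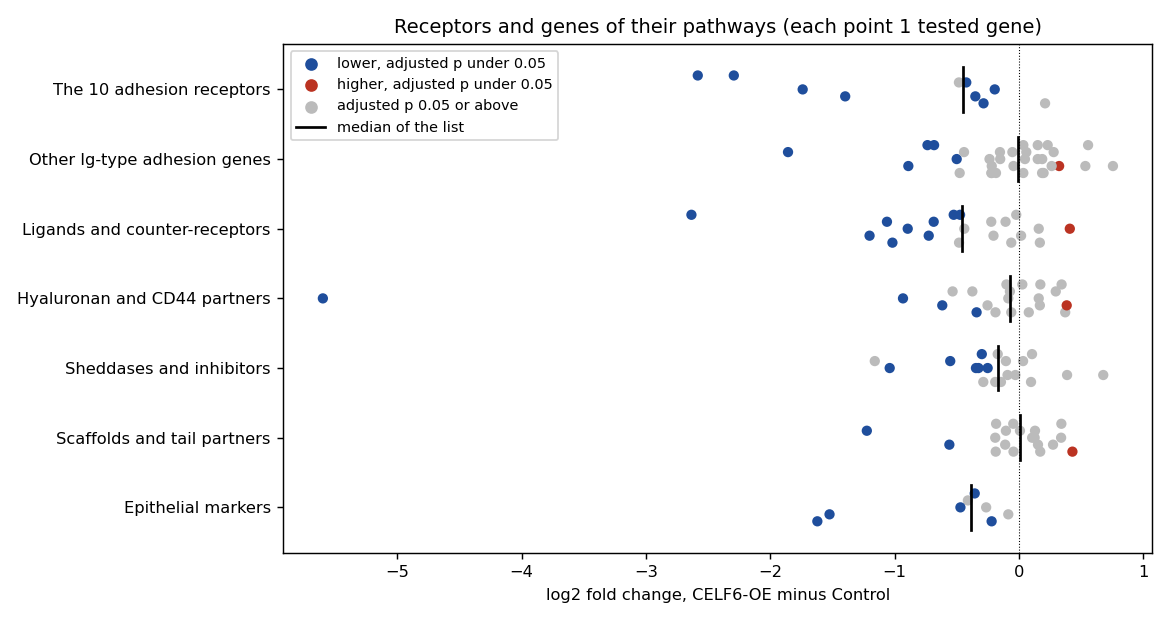
Log2 fold change, CELF6-OE minus Control (x axis), of each tested gene in the receptors and in the lists of their pathways (rows). Blue and red points passed an adjusted p of 0.05 as lower and higher, and black lines are list medians. The median is −0.45 for the receptors, −0.46 for the ligands, −0.38 for the epithelial markers and between −0.17 and 0.01 for the other lists, and the leftmost point is CD74 at −5.60.

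Since several of these receptors are also made by other cell types, markers were looked up. Of 12 leukocyte markers, 4 had no row, 4 had at most 3 counts in every library and none of the 2 tested was called. PTPRC (CD45) had 2 counts in Control replicate 1 and 0 in every other library. The list summed to 3.85 to 5.23 FPKM in CELF6-OE and 3.44 to 4.04 FPKM in Control, nearly all of it CD14 (3.29 to 4.53 FPKM in CELF6-OE and 3.02 to 3.65 in Control), followed by CD79A (0.45 to 0.53 and 0.24 to 0.44 FPKM). Of 9 endothelial markers, 2 had no row and 6 had at most 3 counts in every library. PECAM1, which passed the filter through Control alone, was the single gene tested, with ROBO4 next at 1 to 3 counts. That list summed to 0.03 to 0.04 FPKM in CELF6-OE and 0.06 to 0.10 FPKM in Control. The 8 fibroblast markers summed to 0.77 to 0.81 FPKM in CELF6-OE and 0.87 to 1.03 FPKM in Control, mostly THY1 and COL1A1, and none of the 2 tested was called.

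The epithelial markers were present in every library, with a median log2 fold change of −0.38. Of these 8, 5 were called lower and none higher, against 11.5% and 6.47% of all genes tested. With 1 library left out, 3 to 6 were lower (3 without CELF6-OE replicate 2 or Control replicate 2). CDH1, which encodes E-cadherin, had 539, 516 and 870 counts in CELF6-OE against 2003, 2201 and 2059 in Control and fell by 1.62 on the log2 scale (SE 0.172, adjusted p = 0.000105). CLDN4, a claudin of tight junctions, fell by 1.52 (adjusted p = 0.000204), and the keratins KRT8 and KRT18 by 0.47 (0.00532) and 0.36 (0.021). The call for KRT18 was lost without CELF6-OE replicate 2 or Control replicate 2 (adjusted p up to 0.101). The list summed to 5041 to 5794 FPKM in CELF6-OE and 6179 to 7031 FPKM in Control, mostly KRT7, KRT8 and KRT18. EPCAM (means of 1.03 FPKM in CELF6-OE and 1.34 in Control), CLDN4 (0.41 and 1.16) and CLDN7 (0.25 and 0.29) were low. KRT7 (log2 fold change −0.09, adjusted p = 0.577), EPCAM (−0.41, 0.24) and CLDN7 (−0.26, 0.574) were not called. The log2 fold change of all 8 markers was negative, as for most of the receptors, and their part in the receptors' change was not tested.

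For the 4 receptors that differed by more than 1.5-fold, the 3 genes of most similar pattern were taken as those with the highest Pearson r of log2 counts, scaled to the library size, over the 6 libraries, which share the group difference and their depth. CEACAM1 was closest to TMEM62 (r = 0.9998, log2 fold change −1.0), IGFBP3 (0.9988, −1.21) and TRIM5 (0.9987, −0.80). VCAM1 was closest to ACKR4 (0.9976, −3.90), GADD45A (0.9973, −0.76) and HCAR3 (0.9969, −3.00). ICAM1 followed ZBTB32 (0.9983, −3.97), RP4-740C4.5 (0.9979, −0.72) and RUNDC1 (0.9979, −0.11), and the last 2 of these were not called. ICAM2, with its few counts, was closest to CH17-13I23.3 (0.9937, −0.26), CCAT1 (0.9900, −0.53) and RP11-635N19.1 (0.9869, −1.39), of which the first 2 were not called.

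**Figure D5:**
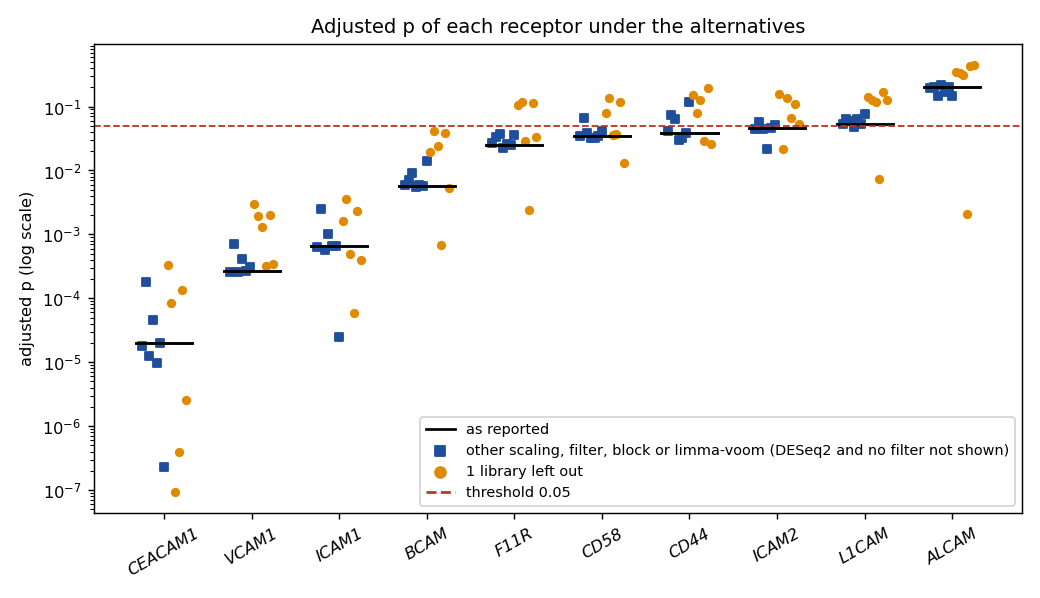
Adjusted p of each receptor (y axis, log scale) as reported (black line), with another scaling, filter, block or limma-voom (squares) and with 1 library left out (circles), without the fits by DESeq2 and with no filter. The dashed line is 0.05. All points of CEACAM1, VCAM1, ICAM1 and BCAM lie below the line, and those of ICAM2, CD58, F11R, CD44, L1CAM and ALCAM fall on both sides of it.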

How the data were processed

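RNA of A549 cells was sequenced in 3 CELF6-OE and 3 Control libraries, grouped by their labels. Following the methods and the submitters' processing notes, the authors trimmed the reads, used TopHat2 for alignment to GRCh38 and counted uniquely located reads per gene. The counting tool, the annotation release and whether strand was used are not given in the sources used here. The authors deposited whole-number counts without normalization, with totals of 33748328 to 37920700 per library, and FPKM values made from the same reads. No column of values was left out.

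Counts of the 15847 genes kept by filterByExpr (minimum count 10) were scaled with TMM and tested with edgeR 4.0.16 (R 4.3.3) in a quasi-likelihood fit of 2 groups (prior degrees of freedom 7.15, biological coefficient of variation 8.62%). A gene was called at a Benjamini-Hochberg adjusted p under 0.05 over all genes tested. Fitted fold changes used a prior count of 0.125. The p-values measure the spread between these replicates. Where an adjusted p under an alternative is given, the range over all alternatives of that gene is in the section on the processing. FPKM served for levels, and counts scaled to the library size for exact permutation tests.

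The receptors and gene lists were chosen with earlier results of these data known. Every receptor is named, and from each list up to 4 called genes with the smallest p, or the 2 of highest mean FPKM where fewer than 2 were called. Of the genes this rule gives, 1 is not reported here. Motifs were searched in RefSeq promoter windows, and gene positions are from GENCODE 44 (GRCh38), in which 29032 of 29889 identifiers (97.1%) were found on the same chromosome. Alternatives were 3 other scalings, 2 other filters, DESeq2 1.42.0, limma-voom (limma 3.58.1), removal of CELF6 counts, the replicate number as a block and leaving out each library. On simulated counts of 15838 genes, 98.5% of 200 changed genes were called, and 11 unchanged ones. The changed genes had a mean of at least 50 counts and a change of at least 2-fold. The share called therefore does not cover receptors with smaller changes or fewer counts. Each gene was drawn independently with a spread fitted to these data, so the 11 do not cover shifts that many genes share within a library. Pairs of libraries within a group differed by more than counting noise (chi-square per degree of freedom 7.67 to 29.3).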

Additional observations from a re-analysis of the deposited data

How the results depend on the processing

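CEACAM1, VCAM1, ICAM1 and BCAM kept their direction and their call under every alternative that gave a value, with adjusted p up to 0.000338, 0.00303, 0.00362 and 0.0409. The direction of the other 6 receptors was also kept, but not their call, and the cause was not tested unless a construction is named. With libraries scaled by total count alone, the log2 fold changes of ICAM2 (−1.70, adjusted p = 0.0572), CD58 (−0.39, 0.0662) and CD44 (−0.16, 0.0736) were not called, and 5 receptors were called lower. With upper quartile scaling CD44 was not called (−0.18, 0.0637). L1CAM was called lower with no filter (−0.49, 0.0259) and with a mean of at least 50 counts (−0.49, 0.0473), a filter that removes ICAM2 and VCAM1. DESeq2 gave ICAM2 no adjusted p. Adjusted p over all alternatives ranged from 0.0213 to 0.159 for ICAM2, 0.00421 to 0.136 for CD58, 0.0259 to 0.192 for CD44, 0.00245 to 0.119 for F11R, 0.00745 to 0.167 for L1CAM and 0.0021 to 0.442 for ALCAM.

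With 1 library left out, the log2 fold change ranged from −2.81 to −1.34 for ICAM2, −0.50 to −0.32 for CD58, −0.22 to −0.18 for CD44, −0.35 to −0.24 for F11R, −0.62 to −0.37 for L1CAM and 0.10 to 0.35 for ALCAM. The receptors called lower then numbered 4 to 8 (4 without CELF6-OE replicate 1 or Control replicate 2, 5 without CELF6-OE replicate 2) and those called higher 0 to 1. Genes called lower among all tested numbered 1032 to 2370 and higher 281 to 1906, against 1820 and 1025 as reported, and genes of the lists 16 to 33 lower and 1 to 12 higher, against 26 and 4 as reported and 9 higher with no filter. With the thresholds of the study's methods applied to the test and filter used here, 4 receptors, 936 genes lower and 216 higher were called. These are not the study's own counts. Of 29 named genes of the lists, 16 kept their call under all alternatives and 13 lost it under at least 1. Over their alternatives, adjusted p ranged from 0.00112 to 0.0611 for MCAM, 0.0071 to 0.0679 for PECAM1, 0.00164 to 0.125 for CEACAM6, 0.000975 to 0.095 for ITGB2, 0.00161 to 0.065 for ITGAM, 0.00293 to 0.0755 for ITGAX, 6.91e-05 to 0.174 for ITGAV, 0.000519 to 0.0594 for ERBB2, 0.00861 to 0.166 for HYAL1, 3.54e-05 to 0.052 for TIMP1, 0.000394 to 0.0745 for ADAM15, 5.26e-06 to 0.0503 for PTPN11 and 2.63e-07 to 0.101 for KRT18. ITGAV also lost its call with scaling by total count and with a mean of at least 50 counts.

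Over all genes tested, libraries of the same replicate number did not deviate together (r = −0.0113, −0.0212 and −0.0722). The labels give only the number and do not say whether such libraries share a batch. With the replicate block, the calls of ICAM2 (log2 fold change −1.77, adjusted p = 0.0513) and CD44 (−0.20, 0.119) were lost and no other receptor changed its call, so that 6 receptors, 1570 genes lower and 720 genes higher were called. Other scalings moved the median of all genes by at most 0.038 (log2). Depth limits ICAM2 and VCAM1, with 36 and 115 counts summed over the Control libraries.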
